A study of Homo sapiens with 29 samples.

Results

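The genes described are 45 genes of DNA replication and S phase, taken by symbol from a list that spans origin licensing, the replication fork, nucleotide supply and the handling of new DNA. All 45 of 45 were measured, among 12165 genes in all. They were followed in DHL4 and DHL6, 2 established human cell lines of diffuse large B-cell lymphoma (an aggressive tumour of B lymphocytes). Cells received 1 µM R406, which inhibits SYK, a tyrosine kinase that relays B-cell receptor signals, for 2, 6, 24 or 48 h, or the solvent DMSO alone. Total RNA was hybridised to Affymetrix short-oligonucleotide arrays. The 29 arrays form 10 groups, DMSO and R406 for 2, 6, 24 and 48 h in DHL4 and the same in DHL6, with 3 arrays each except DHL4 in DMSO, which had 2.

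DNA replication starts at origins, where the origin recognition complex, CDC6 and CDT1 load the MCM helicase during G1. In S phase CDC45 and the GINS proteins switch the helicase on, primase and polymerase alpha lay down primers, and polymerases delta and epsilon extend them while held on DNA by the clamp PCNA. Many of these genes are transcribed as cells pass from G1 into S phase under control of E2F factors, so that their transcripts are abundant in dividing cells and scarce in resting ones.

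Values are the deposited log2 expression, and differences are log2 fold changes ± SE from limma with Benjamini-Hochberg adjustment over all 12165 genes. A gene is called lower or higher where its adjusted p was below 0.05. No label states that a group's arrays stem from independent cultures, and the p-values rest on array-to-array spread that may be technical alone. The DMSO arrays carry no time in their labels, although the design text names times for solvent and R406 alike. All 4 times of a line share its DMSO arrays, so duration of R406 and of culture cannot be told apart in a difference from DMSO. RNA came from bulk cultures, in which fewer cells in S phase and less RNA per cell cannot be told apart.

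Replicate arrays correlated at r from 0.978 to 0.996 across genes, and 0 pairs were identical. The upper quartile of log2 values was 5.39 to 5.57 in 4 arrays, DHL4 2 h replicate 3, DHL6 6 h replicate 3 and DHL6 48 h replicates 1 and 3, against 5.71 to 5.95 in the other 25. Values of DHL6 at 48 h use all 3 arrays unless stated. Many of that group's counts and changes are also given without these 4 arrays, an alternative added after the data were seen. It leaves 1 DHL6 array at 48 h, which is assumed to vary like the other groups. Of the B cell markers, CD79A, CD79B and MS4A1 lay between 8.30 and 11.7 in all group means, and PAX5 stayed at or below 3.03. The 6 T cell and 4 monocyte markers had no group mean above 3.29. Of 7 fibroblast and endothelium markers, 5 had no group mean above 3.49, including COL1A1, COL1A2 and COL3A1. The other 2 varied in DHL4 only. DCN was at 8.43 in DMSO, 8.39 at 2 h, 6.45 at 6 h, 4.42 at 24 h and 8.68 at 48 h, and PECAM1 at 3.08, 3.37, 4.16, 7.64 and 4.79. The sum of the 7 markers on the linear scale ran from 373 to 409 in the DHL4 DMSO arrays, 371 to 407 at 2 h, 140 to 151 at 6 h, 237 to 278 at 24 h and 427 to 506 at 48 h, and from 49.5 to 58.9 over all DHL6 arrays. The part of DCN and PECAM1 in the results was not tested.

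Promoter sequences were searched because the 45 genes moved together in these data and E2F control of replication genes is textbook knowledge. RefSeq windows (GRCh38.p14, 250 bases before to 50 after a gene's start) were matched by symbol for 40 of the 45 genes, with 54 windows in all. The letters searched as E2F matches were TTTCCCGC or TTTCGCGC or TTTGCCGC or TTTGGCGC, on both strands. At least 1 match was found in 23 of the 40 genes (57.5%), against 595 of 9711 measured genes with a window (6.13%). Counted by window it was 23 of 54 (42.6%), against 1164 of all 35116 windows (3.31%). CCAAT, the letters bound by NF-Y, occurred in 24 of the 40 genes (60.0%) against 44.3% of measured genes. The CHR letters TTTGAA or TTCGAA, linked to late cell cycle genes, occurred in 4 (10.0%) against 17.1%, and the GC box GGGCGG in 30 (75%) against 69.7%. A match of letters is a description and not a binding site. In the windows below capitals mark E2F and CCAAT letters. CDC6, MCM6 and PCNA are shown as licensing, helicase and clamp genes with E2F letters. MCM10 is shown as the gene with the lowest change of all 45 in DHL6 at 24 h and at 48 h. None of the letters searched as E2F matches occurred in its window, and other forms of E2F letters were not searched in any gene.
CDC6 (chr17:40287629-40287928, strand +): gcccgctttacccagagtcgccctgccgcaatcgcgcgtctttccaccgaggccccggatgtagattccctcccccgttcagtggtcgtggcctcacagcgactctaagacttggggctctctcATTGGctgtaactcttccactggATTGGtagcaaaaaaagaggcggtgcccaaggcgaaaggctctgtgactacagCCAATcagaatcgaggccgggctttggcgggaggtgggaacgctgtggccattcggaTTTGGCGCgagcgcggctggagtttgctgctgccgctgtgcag
MCM6 (chr2:135876394-135876693, strand -): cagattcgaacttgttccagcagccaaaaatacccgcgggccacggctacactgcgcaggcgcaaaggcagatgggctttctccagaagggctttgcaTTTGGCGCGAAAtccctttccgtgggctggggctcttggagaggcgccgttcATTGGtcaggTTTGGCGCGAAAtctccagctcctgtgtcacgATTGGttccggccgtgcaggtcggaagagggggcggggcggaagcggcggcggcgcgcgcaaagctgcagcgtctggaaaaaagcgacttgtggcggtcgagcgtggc
PCNA (chr20:5126573-5126872, strand -): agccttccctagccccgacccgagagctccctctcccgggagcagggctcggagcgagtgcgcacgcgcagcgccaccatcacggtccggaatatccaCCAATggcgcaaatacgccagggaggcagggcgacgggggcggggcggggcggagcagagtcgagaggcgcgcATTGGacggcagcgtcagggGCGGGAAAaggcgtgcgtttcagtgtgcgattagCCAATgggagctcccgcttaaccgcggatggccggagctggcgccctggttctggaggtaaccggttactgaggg
MCM10 (chr10:13161308-13161607, strand +): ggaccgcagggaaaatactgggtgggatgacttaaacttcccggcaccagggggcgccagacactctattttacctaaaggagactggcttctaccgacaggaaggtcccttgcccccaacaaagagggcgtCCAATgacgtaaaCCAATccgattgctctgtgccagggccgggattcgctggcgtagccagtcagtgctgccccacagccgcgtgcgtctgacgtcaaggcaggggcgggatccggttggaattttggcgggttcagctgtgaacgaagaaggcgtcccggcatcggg
In MCM6 the E2F letters occurred in a pair of places, each read on both strands with overlap, the nearer at position -90 counted from the start. In PCNA, whose other window held none, they lay at position -59 on the reverse strand, and in CDC6 at position 8 within the transcript. At 24 h in DHL4 the median log2 fold change was -1.75 for the 23 genes with and -1.63 for the 17 without. In DHL6 these medians were -0.61 and -0.40 at 24 h. No test was made of these medians.

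In DHL4 most replication transcripts fell between 6 and 24 h of R406 and rose again by 48 h. At 24 h 42 of 45 were lower than in DMSO, 37 of them at or past a 2-fold fall, with a median of -1.63, and 0 were higher, while over all genes 16.5% were lower, 13.0% were higher and the median was 0.03. At 48 h 14 were lower and 0 higher in DHL4, median -0.44, against 3.80% and 3.53% of all genes. In DHL6 at 24 h 26 were lower and 0 higher, median -0.59, against 8.17% and 6.20% of all genes. At 48 h 41 were lower and 0 higher in DHL6, median -0.96, 20 of them at or past a 2-fold fall, against 14.9% and 8.39%.

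The 48 h group of DHL6 was uneven. Its array medians over the 45 genes, taken as differences from the DMSO mean, were -1.26, -0.62 and -1.05, and the 2 lower values came from the arrays of low upper quartile. At 24 h the DHL6 array medians were -0.54, -0.64 and -0.62, and in DHL4 they were -1.63, -1.69 and -1.63 at 24 h and -0.28, -0.36 and -0.66 at 48 h. Without the 4 arrays of low upper quartile 24 genes were lower at 48 h in DHL6 in place of 41, with a median of -0.62, and all 45 values stayed negative, while 6.05% of all genes were lower and 4.73% higher. The same setting raised the DHL4 48 h count from 14 to 24, against 6.63% lower and 5.94% higher of all genes. None of the 4 arrays is a DHL4 DMSO or 48 h array, so the DHL4 changes at 48 h stayed the same. That count rose through the shared estimate of spread alone. Whether the lower levels of those arrays are a property of the hybridisation or of the cells was not tested. Leaving out single arrays moved the DHL4 48 h count of 14 to 5 and 8 without DMSO replicates 1 and 2 and to 6 without 48 h replicate 3.

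**Figure D1:**
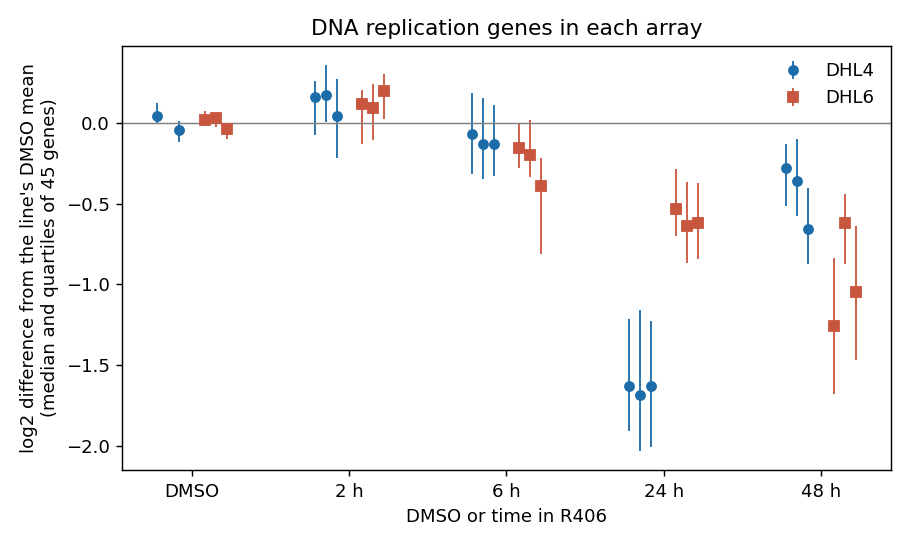
Each point is the median over the 45 replication genes in 1 array, as a log2 difference from the line's DMSO mean (vertical axis), with bars from the lower to the upper quartile of the genes; the horizontal axis gives DMSO or hours in R406. The 3 DHL4 arrays at 24 h lie from -1.69 to -1.63, and the 3 DHL6 arrays at 48 h are spread from -1.26 to -0.62.

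Few of the 45 changed early. At 2 h in DHL4, 2 were lower and 2 higher, against 6.81% and 2.67% of all genes, and at 6 h 4 were lower and 1 higher, against 6.36% and 6.42%. In DHL6 0 were lower and 1 higher at 2 h, against 3.16% and 2.14%, and 8 were lower and 0 higher at 6 h, against 5.12% and 3.14%. The genes lower at 6 h in DHL4 were CDC6 (-0.89), RFC2 (-0.52), MCM6 (-0.47) and PCNA (-0.42). In DHL6 they were CDC6 (-0.93), TK1 (-0.79), RRM2 (-0.55), TYMS (-0.52), RRM1 (-0.52), MCM6 (-0.45), FEN1 (-0.44) and DUT (-0.38), which include all 5 nucleotide supply genes. CDC6, a short-lived loader of the helicase, and MCM6 were thus lower at 6 h in both lines. Apart from the 1 higher gene at 2 h in DHL6, these early counts hang on single arrays. The 2 lower genes at 2 h in DHL4, GINS1 and RFC3, both lost their call without DMSO replicate 1, DMSO replicate 2 or 2 h replicate 3, and the higher count of 2 was 0 or 1 without any 1 of its arrays. The 1 higher gene at 6 h in DHL4, PRIM1, lost its call without any 1 of its 5 arrays. The 1 higher gene at 2 h in DHL6, GINS2, kept its call under every setting, and that count became 2 without 2 h replicate 1. The DHL4 6 h count of 4 was 0 and 2 without DMSO replicates 1 and 2, and 1, 2 and 1 without 6 h replicates 1, 2 and 3. The DHL6 6 h count of 8 was 1, 2 and 3 without DMSO replicates 1, 2 and 3, and 1 without 6 h replicate 3.

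**Figure D2:**
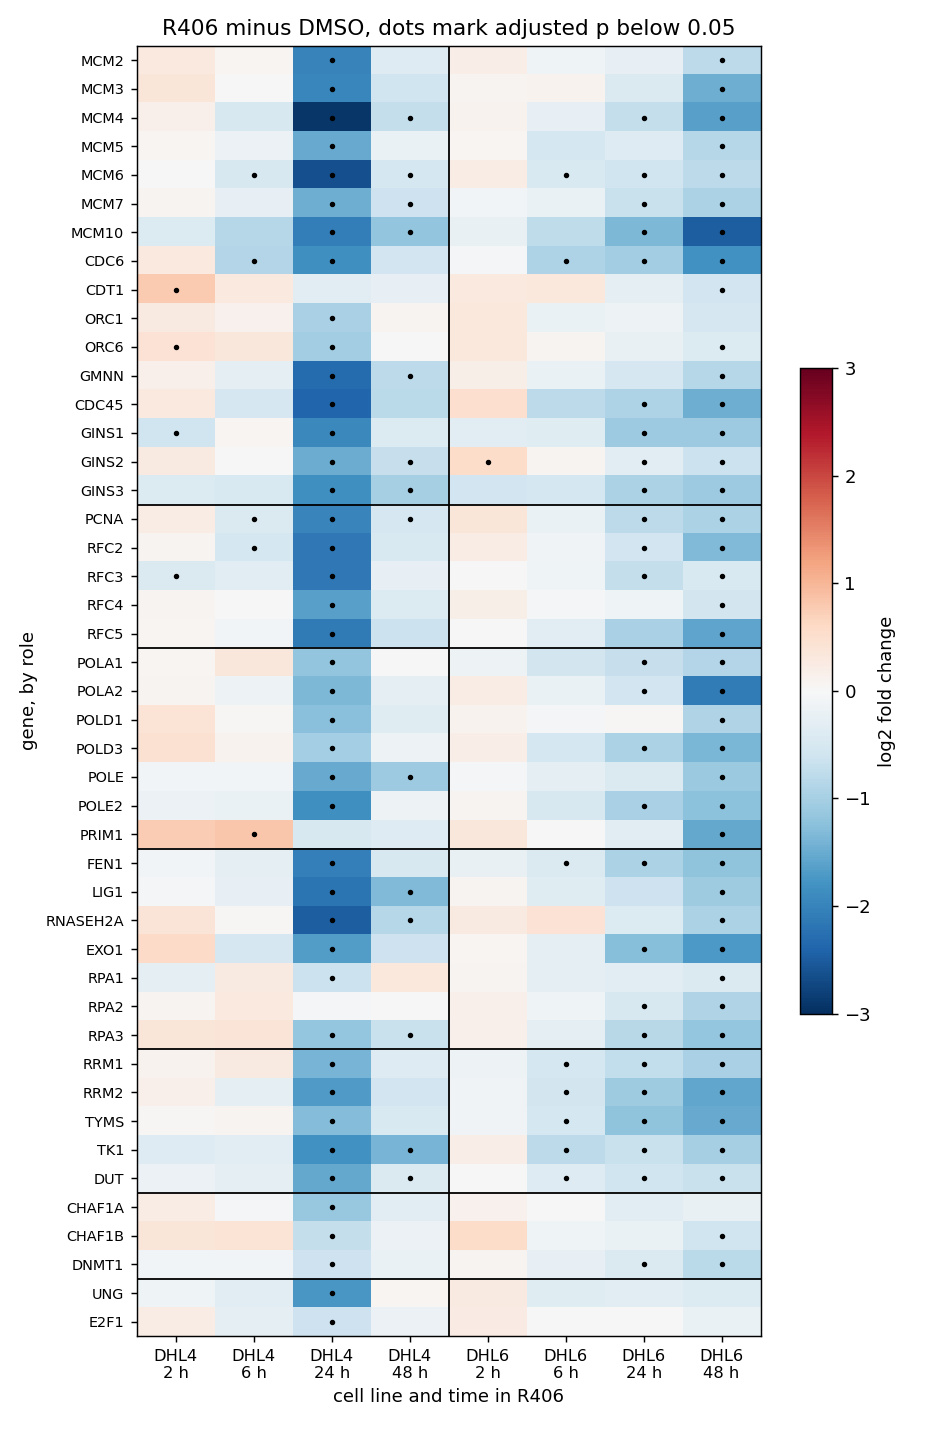
Rows are the 45 genes grouped by role, columns are line and hours in R406, and colour is the log2 fold change from DMSO on a scale from -3 to 3, with a dot where the adjusted p (limma) was below 0.05. The DHL4 24 h column holds 42 dots and the DHL6 48 h column 41.

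Licensing and helicase genes made up 16 of the 45. At 24 h 15 of them were lower in DHL4 and 9 in DHL6, with medians of -1.89 and -0.55. For this role and those below, 16.5% of all genes were lower at 24 h in DHL4. In DHL6 the shares of all genes lower were 5.12%, 8.17% and 14.9% at 6, 24 and 48 h, with all arrays. The MCM2 to MCM7 proteins form the ring that unwinds DNA at the fork. All 6 of their genes fell in DHL4 at 24 h, MCM2 (-2.002), MCM3 (-1.97), MCM4 (-2.92), MCM5 (-1.51), MCM6 (-2.63) and MCM7 (-1.46). In DHL6 at 24 h MCM4 (-0.71), MCM6 (-0.61) and MCM7 (-0.67) fell and MCM2, MCM3 and MCM5 stood at -0.25, -0.42 and -0.40 and were not called.

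MCM4 had the lowest change of the 45 genes at 24 h in DHL4. Its levels there were 9.04 and 8.74 in DMSO, 9.09, 8.89 and 9.17 at 2 h, 8.41, 8.33 and 8.50 at 6 h, 6.15, 5.76 and 5.97 at 24 h, and 8.25, 8.33 and 7.96 at 48 h. The 24 h arrays lay below every other DHL4 array, and the 48 h arrays lay between those of 24 h and DMSO. In DHL6 MCM4 was at 8.57, 8.58 and 8.45 in DMSO, 8.66, 8.72 and 8.57 at 2 h, 8.26, 8.38 and 8.24 at 6 h, 7.89, 7.76 and 7.81 at 24 h, and 6.53, 7.49 and 6.70 at 48 h. From 2 h on each group lay below the one before it without overlap, and the 3 arrays at 48 h were the lowest. The 24 h change was -2.92 ± 0.18 in DHL4, a 7.59-fold fall (limma, adjusted p = 2.87e-12), and -0.71 ± 0.16 in DHL6 (adjusted p = 0.00306). At 48 h it was -0.71 ± 0.18 in DHL4 and -1.63 ± 0.16 in DHL6, and -1.05 in DHL6 without the 4 arrays.

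MCM6, another ring subunit, started at a high level. In DHL4 it was at 10.03 and 9.90 in DMSO, 9.93, 10.13 and 9.82 at 2 h, 9.56, 9.49 and 9.43 at 6 h, 7.25, 7.41 and 7.36 at 24 h, and 9.49, 9.51 and 9.29 at 48 h. Only the 24 h arrays stood apart by more than 1 log2 unit from the rest, all of them lower. The DHL6 arrays gave 9.87, 9.94 and 9.74 in DMSO, 10.17, 9.97 and 10.07 at 2 h, 9.54, 9.61 and 9.04 at 6 h, 9.32, 9.21 and 9.21 at 24 h, and 8.87, 9.23 and 9.07 at 48 h. All 9 DHL6 arrays from 6 h on lay below its 3 DMSO arrays, but those of 6, 24 and 48 h overlapped. The change at 24 h was -2.63 ± 0.14 in DHL4 and -0.61 ± 0.13 in DHL6 (limma, adjusted p = 1.99e-13 and adjusted p = 0.00120).

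MCM10, which helps the loaded helicase to start, was at moderate to low levels. In DHL4 its arrays read 5.60 and 4.38 in DMSO, 4.53, 5.14 and 4.04 at 2 h, 4.22, 3.80 and 4.39 at 6 h, 2.62, 2.88 and 3.28 at 24 h, and 3.94, 3.70 and 3.80 at 48 h. The pair of DMSO arrays differed by more than 1 log2 unit, and the 24 h arrays were near the lower end of the array's range, where RMA compresses differences and understates a fall. In DHL6 MCM10 read 5.63, 5.72 and 5.72 in DMSO, 5.37, 5.45 and 5.55 at 2 h, 5.01, 5.49 and 4.30 at 6 h, 4.56, 4.38 and 4.08 at 24 h, and 3.20, 3.33 and 3.15 at 48 h. The groups at 24 and 48 h did not overlap each other or DMSO. The changes at 24 and 48 h were -1.35 ± 0.28 and -2.47 ± 0.28 in DHL6 (limma, adjusted p = 0.00111 and adjusted p = 3.96e-07), and the 48 h value was -2.36 without the 4 arrays.

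Of the loaders, CDC6 fell in both lines at 24 h, with changes of -1.83 ± 0.29 in DHL4 and -1.05 ± 0.26 in DHL6. CDT1, its partner in loading, was below 4 on the log2 scale in DMSO in both lines. Its DHL4 levels were 3.30 and 2.98 in DMSO, 3.31, 4.51 and 3.98 at 2 h, 3.40, 3.32 and 3.58 at 6 h, 2.71, 2.90 and 2.79 at 24 h, and 2.73, 3.04 and 2.92 at 48 h. Only 1 array, at 2 h, rose above 4, and the 2 h change of 0.79 ± 0.22 was called higher (limma, adjusted p = 0.0207). The DHL6 levels of CDT1 were 3.47, 3.35 and 3.25 in DMSO, 3.56, 3.44 and 3.96 at 2 h, 3.65, 3.74 and 3.63 at 6 h, 2.89, 3.09 and 3.27 at 24 h, and 2.57, 2.71 and 3.03 at 48 h. CDT1 was lower at 48 h in DHL6 (-0.58 ± 0.20) but not without the 4 arrays (-0.65, adjusted p = 0.176). At levels this low little room for a fall is left.

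ORC1 and ORC6 belong to the origin recognition complex. ORC6 in DHL4 was at 7.56 and 7.62 in DMSO, 8.11, 8.07 and 7.92 at 2 h, 7.89, 7.99 and 7.92 at 6 h, 6.37, 6.84 and 6.45 at 24 h, and 7.61, 7.67 and 7.47 at 48 h. The 2 h and 6 h arrays were above DMSO, the 24 h arrays below, and the 48 h arrays level with it. In DHL6 ORC6 was at 7.59, 7.67 and 7.43 in DMSO, 7.91, 7.70 and 8.03 at 2 h, 7.71, 7.69 and 7.55 at 6 h, 7.32, 7.29 and 7.43 at 24 h, and 6.92, 7.32 and 7.24 at 48 h, where the 2 h arrays were above DMSO and the 48 h arrays below it. Its changes were 0.44 ± 0.14 at 2 h in DHL4 (adjusted p = 0.0371), -1.04 ± 0.14 at 24 h in DHL4 and -0.40 ± 0.12 at 48 h in DHL6 (adjusted p = 0.0168, limma). Leaving out the 4 arrays, the last was -0.24 and lost its call (adjusted p = 0.415). ORC1 fell in DHL4 at 24 h (-0.98 ± 0.22) and was not called in DHL6 at 48 h (-0.51 ± 0.19, adjusted p = 0.0602, and -0.61 without the 4 arrays).

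GMNN encodes geminin, which blocks CDT1 after licensing. It changed by -2.30 ± 0.22 in DHL4 at 24 h and stood at -0.49 ± 0.19 in DHL6, not called (adjusted p = 0.0985, limma). CDC45, an activator of the helicase, changed by -2.37 ± 0.30 in DHL4 and -0.93 ± 0.27 in DHL6. The GINS genes encode the other activator, and GINS1, GINS2 and GINS3 fell in both lines at 24 h, with changes of -1.94, -1.49 and -1.84 in DHL4 and -1.10, -0.34 and -0.95 in DHL6.

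GINS2 was also the single gene of the 45 called at 2 h in DHL6. Its DHL6 arrays were at 8.44, 8.56 and 8.39 in DMSO, 8.91, 8.96 and 9.15 at 2 h, 8.63, 8.53 and 8.48 at 6 h, 8.18, 8.10 and 8.08 at 24 h, and 7.63, 8.02 and 7.84 at 48 h. The 2 h arrays lay above all others, and those of 24 and 48 h below DMSO. In DHL4 GINS2 was at 8.78 and 8.76 in DMSO, 9.02, 9.12 and 8.98 at 2 h, 8.78, 8.74 and 8.82 at 6 h, 7.14, 7.40 and 7.31 at 24 h, and 8.26, 8.20 and 7.77 at 48 h. There the 2 h arrays also lay above DMSO but the change was not called (0.27 ± 0.13, adjusted p = 0.231), while in DHL6 it was 0.54 ± 0.12 (limma, adjusted p = 0.00377).

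**Figure D3:**
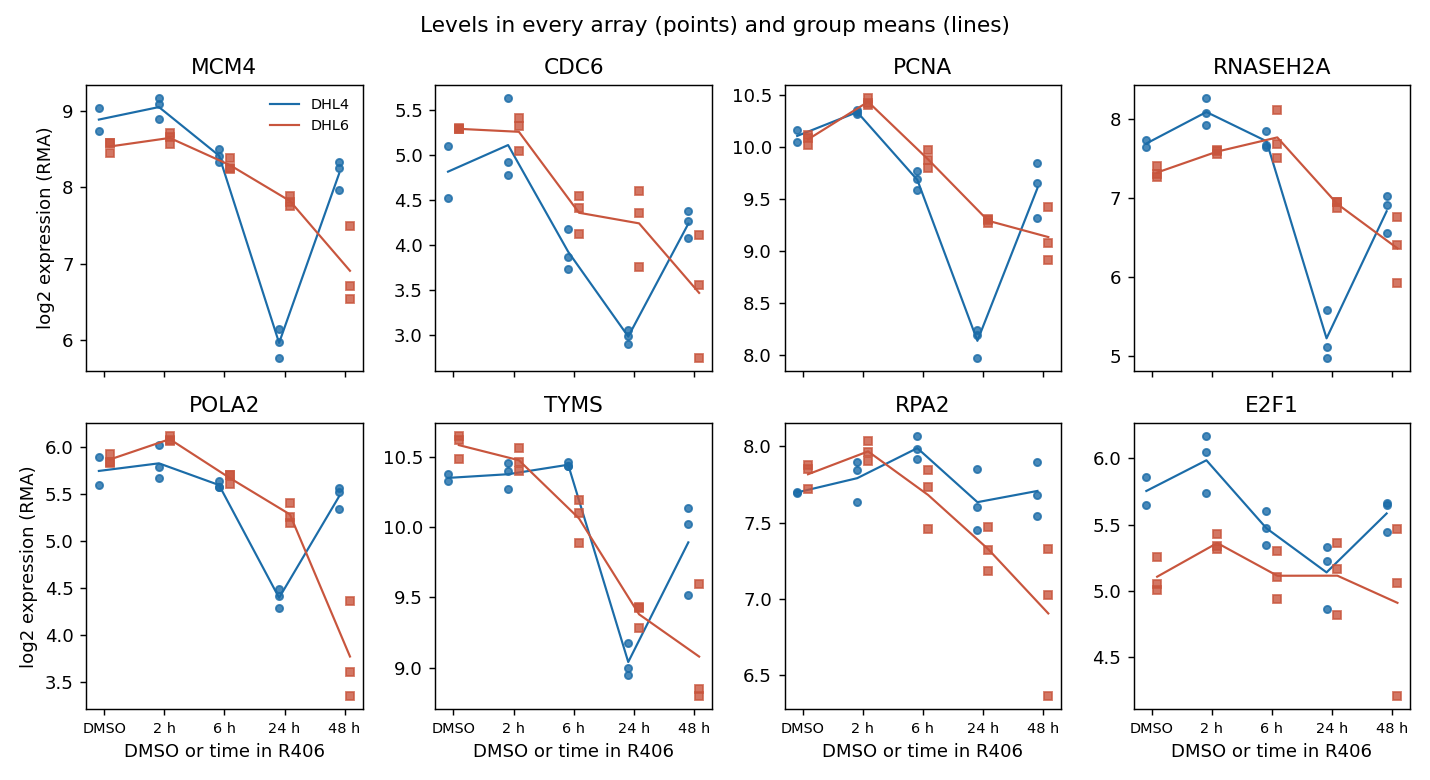
Each panel gives the log2 expression (vertical axis, RMA) of 1 gene in every array as points, DHL4 as circles and DHL6 as squares, with lines through the group means; the horizontal axis gives DMSO or hours in R406. MCM4, PCNA and RNASEH2A drop to their lowest DHL4 level at 24 h and return part of the way at 48 h, POLA2 falls to 3.77 on average in DHL6 at 48 h, and RPA2 stays near its DMSO level in DHL4.

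All 5 clamp and clamp loader genes were lower at 24 h in DHL4, with a median of -2.11, and 3 of 5 in DHL6, with a median of -0.71. PCNA is the sliding clamp that keeps polymerases on DNA, and RFC2 to RFC5 are subunits of the complex that opens it. PCNA changed by -1.97 ± 0.13 in DHL4 and -0.78 ± 0.12 in DHL6, RFC2 by -2.14 ± 0.15 and -0.58 ± 0.13, and RFC4 by -1.63 ± 0.15 in DHL4 with -0.12 ± 0.13 and no call in DHL6.

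RFC3 had tight replicates. In DHL4 its levels were 9.84 and 9.85 in DMSO, 9.50, 9.39 and 9.35 at 2 h, 9.56, 9.49 and 9.57 at 6 h, 7.67, 7.80 and 7.66 at 24 h, and 9.71, 9.60 and 9.51 at 48 h. The 24 h arrays lay more than 1.5 log2 units below every other DHL4 array. In DHL6 they were 9.40, 9.43 and 9.40 in DMSO, 9.44, 9.35 and 9.40 at 2 h, 9.34, 9.43 and 9.09 at 6 h, 8.64, 8.66 and 8.81 at 24 h, and 8.84, 9.21 and 8.79 at 48 h. The arrays of 24 and 48 h overlapped each other and lay below DMSO. RFC3 changed by -2.14 ± 0.12 and -0.71 ± 0.10 at 24 h (limma, adjusted p = 2.56e-13 and adjusted p = 1.95e-05), and in DHL4 it was already -0.43 ± 0.12 at 2 h (adjusted p = 0.0175).

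RFC5 was the least even of this group. The DHL4 arrays read 7.09 and 6.72 in DMSO, 7.11, 7.12 and 6.67 at 2 h, 6.98, 6.62 and 6.84 at 6 h, 5.16, 4.57 and 4.65 at 24 h, and 6.60, 6.54 and 5.65 at 48 h. In DHL6 RFC5 read 6.63, 6.56 and 6.66 in DMSO, 6.76, 5.97 and 7.10 at 2 h, 6.84, 6.70 and 5.29 at 6 h, 6.06, 5.29 and 5.58 at 24 h, and 4.09, 5.93 and 5.07 at 48 h. The lowest arrays at 6 and 48 h in DHL6 were those of low upper quartile. At 24 h RFC5 changed by -2.11 ± 0.43 in DHL4, while -0.98 ± 0.38 in DHL6 was not called (adjusted p = 0.1005, limma), and the DHL6 48 h change of -1.59 ± 0.38 was -0.69 and lost its call without the 4 arrays (adjusted p = 0.275).

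Of 7 polymerase and primase genes, 6 were lower at 24 h in DHL4 and 4 in DHL6, with medians of -1.26 and -0.58, and all 7 were lower at 48 h in DHL6, with a median of -1.23. With those 4 arrays left out 5 of 7 were lower there, with a median of -0.87, and POLA1 (-0.44, limma, adjusted p = 0.0790) and POLE2 lost their call. POLA1 and POLA2, the catalytic and regulatory subunits of polymerase alpha, changed by -1.17 ± 0.21 and -1.35 ± 0.18 at 24 h in DHL4, and by -0.70 ± 0.19 and -0.58 ± 0.16 in DHL6. POLD1, the catalytic subunit of polymerase delta, changed by -1.26 ± 0.26 in DHL4 and stood at 0.02 ± 0.23 in DHL6. POLD3, an accessory subunit of it, changed by -1.03 ± 0.30 and -0.96 ± 0.27, and POLE, the catalytic subunit of polymerase epsilon, by -1.51 ± 0.23 in DHL4, with -0.44 ± 0.21 and no call in DHL6.

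POLE2, the second subunit of polymerase epsilon, read 5.82 and 5.77 in DMSO, 5.77, 5.57 and 5.50 at 2 h, 5.75, 5.49 and 5.57 at 6 h, 4.03, 3.93 and 3.93 at 24 h, and 5.85, 5.85 and 5.23 at 48 h in DHL4. The 24 h arrays were near 4 and apart from the rest, and the 48 h arrays spanned the DMSO pair. In DHL6 POLE2 read 6.09, 6.10 and 5.82 in DMSO, 6.04, 5.90 and 6.35 at 2 h, 5.82, 5.88 and 4.86 at 6 h, 5.06, 4.74 and 5.29 at 24 h, and 4.54, 5.61 and 4.17 at 48 h. The 24 h arrays lay inside the wide range at 48 h. The 24 h changes were -1.83 ± 0.30 and -0.98 ± 0.27 (limma, adjusted p = 2.10e-05 and adjusted p = 0.0124), and the DHL6 48 h change of -1.23 ± 0.27 was -0.40 without the 4 arrays (adjusted p = 0.311).

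POLA2 parted the lines most at 48 h. In DHL4 it was at 5.90 and 5.60 in DMSO, 6.03, 5.67 and 5.79 at 2 h, 5.57, 5.58 and 5.64 at 6 h, 4.49, 4.29 and 4.41 at 24 h, and 5.57, 5.53 and 5.34 at 48 h, so that the 24 h arrays were lowest and those of 48 h stood just below DMSO. In DHL6 it was at 5.85, 5.84 and 5.93 in DMSO, 6.08, 6.12 and 6.07 at 2 h, 5.70, 5.61 and 5.71 at 6 h, 5.25, 5.20 and 5.41 at 24 h, and 3.35, 4.37 and 3.60 at 48 h. All 3 arrays at 48 h, replicate 2 included, lay below the 24 h arrays of that line. The 48 h change was -0.27 ± 0.18 in DHL4 (limma, adjusted p = 0.522) while DHL6 gave -2.10 ± 0.16 (adjusted p = 6.78e-10), a 4.28-fold fall, and -1.50 in DHL6 without the 4 arrays (adjusted p = 4.18e-07).

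PRIM1 is the catalytic subunit of primase. The DHL4 arrays were at 7.11 and 7.02 in DMSO, 7.95, 7.85 and 7.69 at 2 h, 7.89, 7.87 and 7.92 at 6 h, 6.36, 6.78 and 6.60 at 24 h, and 6.88, 6.71 and 6.44 at 48 h. Those of 2 and 6 h lay above DMSO and those of 24 and 48 h below it. In DHL6 PRIM1 was at 7.52, 7.54 and 7.46 in DMSO, 7.76, 7.74 and 8.05 at 2 h, 7.58, 7.65 and 7.28 at 6 h, 7.38, 7.23 and 6.96 at 24 h, and 6.34, 6.60 and 4.95 at 48 h. Its 48 h arrays were all below the rest and far apart from each other. PRIM1 was higher at 6 h in DHL4 (0.83 ± 0.27, adjusted p = 0.0464) and not called at 24 h (-0.48 ± 0.27, adjusted p = 0.226). In DHL6 the 48 h change was -1.54 ± 0.25 (adjusted p = 4.32e-05, limma), and -0.90 without the 4 arrays.

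Strand processing and single-strand binding genes were lower at 24 h for 6 of 7 in DHL4 and 4 of 7 in DHL6, with medians of -1.66 and -0.62. FEN1, which trims flaps from lagging-strand fragments, changed by -2.06 ± 0.15 in DHL4 and -0.95 ± 0.14 in DHL6 at 24 h. LIG1, the ligase that joins the fragments, changed by -2.20 ± 0.25 in DHL4 and was at -0.62 ± 0.23 in DHL6 (adjusted p = 0.0744, limma). It was among the genes still lower at 48 h in DHL4, at -1.32 ± 0.25.

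RNASEH2A, the catalytic subunit of an RNase H that removes RNA from DNA, read 7.74 and 7.64 in DMSO, 8.08, 7.92 and 8.27 at 2 h, 7.65, 7.85 and 7.67 at 6 h, 4.98, 5.59 and 5.11 at 24 h, and 7.03, 6.91 and 6.56 at 48 h in DHL4. All 3 arrays at 24 h were lowest, and the 48 h arrays stood below DMSO. In DHL6 it read 7.40, 7.31 and 7.26 in DMSO, 7.56, 7.61 and 7.60 at 2 h, 7.69, 7.50 and 8.11 at 6 h, 6.87, 6.96 and 6.95 at 24 h, and 5.93, 6.76 and 6.40 at 48 h. The 6 h arrays were above DMSO, although the change was not called (adjusted p = 0.145, limma). The 24 h change was -2.46 ± 0.20 in DHL4, a 5.52-fold fall, and -0.40 ± 0.18 in DHL6 (adjusted p = 0.157). The DHL6 48 h change was -0.96 ± 0.18, and -0.56 with adjusted p = 0.0561 without the 4 arrays.

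EXO1, an exonuclease of repair and replication, started higher in DHL6. Its DHL4 levels were 4.96 and 4.58 in DMSO, 5.21, 5.59 and 5.26 at 2 h, 4.34, 4.17 and 4.27 at 6 h, 3.23, 3.30 and 2.79 at 24 h, and 4.16, 4.19 and 4.14 at 48 h, with 24 h near the array's lower end. The DHL6 levels were 6.24, 6.18 and 5.78 in DMSO, 5.91, 6.16 and 6.31 at 2 h, 5.83, 5.80 and 5.69 at 6 h, 4.71, 4.94 and 4.74 at 24 h, and 4.38, 4.82 and 3.80 at 48 h. Both late groups lay below DMSO in each line, and in DHL6 they overlapped. EXO1 changed by -1.66 ± 0.21 in DHL4 and -1.27 ± 0.19 in DHL6 at 24 h (limma, adjusted p = 4.45e-07 and adjusted p = 1.81e-05).

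RPA1, RPA2 and RPA3 encode the complex that coats single-stranded DNA, and 2 of the 3 were called in DHL4. At 24 h RPA3 changed by -1.16 ± 0.16 and RPA1 by -0.63 ± 0.16, while RPA2 was at -0.06 ± 0.18 (adjusted p = 0.873, limma). The RPA2 arrays of DHL4 were at 7.70 and 7.69 in DMSO and 7.45, 7.85 and 7.60 at 24 h, which overlap. In DHL6 RPA2 and RPA3 fell at 24 h, with changes of -0.49 ± 0.16 and -0.84 ± 0.14, and RPA1, at -0.34 ± 0.14, was not called. RPA2 was the single gene called lower at 24 h in DHL6 and not in DHL4.

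Nucleotide supply genes were lower for 5 of 5 in DHL4 at 24 h, with a median of -1.55, and for 5 of 5 in DHL6 at 6, 24 and 48 h, with medians of -0.52, -0.73 and -0.997. The calls at 6 h are the least firm, as 0 of the 8 replication genes lower then in DHL6 were called under every setting. In DHL6 at 48 h 4 of 5 were lower without the 4 arrays, with a median of -0.65, and TK1 was not called (-0.57, limma, adjusted p = 0.136). RRM1 and RRM2 are the subunits of ribonucleotide reductase, which makes deoxynucleotides. In DHL4 and DHL6 RRM1 changed by -1.41 ± 0.16 and -0.73 ± 0.14 at 24 h and RRM2 by -1.69 ± 0.18 and -1.06 ± 0.16. DUT, which removes dUTP, changed by -1.55 ± 0.11 in DHL4 and -0.59 ± 0.10 in DHL6.

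TYMS makes thymidylate. In DHL4 it was at 10.37 and 10.33 in DMSO, 10.46, 10.40 and 10.27 at 2 h, 10.43, 10.44 and 10.46 at 6 h, 8.95, 9.18 and 8.998 at 24 h, and 10.13, 10.02 and 9.52 at 48 h. The 6 h arrays were just above DMSO and the 24 h arrays more than 1 log2 unit below it. In DHL6 TYMS was at 10.65, 10.62 and 10.48 in DMSO, 10.40, 10.46 and 10.57 at 2 h, 10.10, 10.19 and 9.89 at 6 h, 9.43, 9.28 and 9.43 at 24 h, and 8.80, 9.60 and 8.85 at 48 h. Here the 6 h arrays already lay below DMSO. The change at 6 h was 0.09 ± 0.18 in DHL4 and -0.52 ± 0.16 in DHL6, and at 24 h -1.31 ± 0.18 and -1.20 ± 0.16 (limma, adjusted p = 1.57e-06 and adjusted p = 4.38e-06).

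TK1, which salvages thymidine, was modest in level. The DHL4 values were 5.65 and 5.36 in DMSO, 4.84, 5.52 and 4.97 at 2 h, 5.05, 5.26 and 5.18 at 6 h, 3.68, 3.46 and 3.91 at 24 h, and 4.05, 4.35 and 3.92 at 48 h. The arrays of 24 and 48 h nearly touched, and both groups lay below DMSO. In DHL6 they were 4.33, 4.45 and 4.19 in DMSO, 4.54, 4.43 and 4.62 at 2 h, 3.67, 3.68 and 3.26 at 6 h, 4.004, 3.48 and 3.52 at 24 h, and 3.17, 3.75 and 3.06 at 48 h. The 6, 24 and 48 h groups overlapped one another below DMSO and near the lower end of the range. TK1 was the lowest of the 45 at 48 h in DHL4, at -1.40 ± 0.21 (adjusted p = 7.31e-05, limma), after -1.82 ± 0.21 at 24 h. In DHL6 it was -0.79 ± 0.19 at 6 h and -0.66 ± 0.19 at 24 h.

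CHAF1A and CHAF1B, subunits of the factor that places histones on new DNA, and DNMT1, which copies DNA methylation, were lower for 3 of 3 at 24 h in DHL4, with a median of -0.71, and 1 of 3 in DHL6. CHAF1A in DHL4 was at 6.80 and 6.70 in DMSO, 6.91, 7.14 and 6.84 at 2 h, 6.72, 6.76 and 6.65 at 6 h, 5.77, 5.54 and 5.54 at 24 h, and 6.65, 6.63 and 6.01 at 48 h, with the 24 h arrays lowest. In DHL6 it was at 6.17, 6.21 and 6.20 in DMSO, 6.19, 6.35 and 6.42 at 2 h, 6.18, 6.08 and 6.34 at 6 h, 5.76, 5.996 and 5.88 at 24 h, and 5.86, 6.07 and 5.97 at 48 h. Its 24 and 48 h arrays there lay below DMSO by a small margin. The 24 h change was -1.13 ± 0.15 in DHL4 and -0.31 ± 0.13, not called, in DHL6 (adjusted p = 0.135, limma). CHAF1B, below 4 in DMSO in both lines, was -0.71 ± 0.21 in DHL4 and -0.21 ± 0.19 in DHL6.

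In DHL4 DNMT1 was at 8.98 and 8.78 in DMSO, 8.72, 8.76 and 8.88 at 2 h, 8.78, 8.85 and 8.74 at 6 h, 8.23, 8.34 and 8.22 at 24 h, and 8.82, 8.79 and 8.43 at 48 h. The 24 h arrays were lowest by a narrow gap. In DHL6 DNMT1 was at 8.58, 8.59 and 8.49 in DMSO, 8.67, 8.47 and 8.73 at 2 h, 8.37, 8.30 and 8.23 at 6 h, 8.13, 8.16 and 8.06 at 24 h, and 7.51, 7.78 and 7.91 at 48 h, falling from group to group after 2 h without overlap. The 24 h changes were -0.62 ± 0.12 and -0.44 ± 0.11, and that of 48 h in DHL6 was -0.81 ± 0.11 (limma, adjusted p = 5.09e-06), or -0.77 without the 4 arrays.

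UNG, which cuts uracil out of DNA, fell at 24 h in DHL4 and rose from 24 to 48 h. The DHL4 arrays were at 7.05 and 6.96 in DMSO, 7.09, 6.95 and 6.61 at 2 h, 6.71, 6.84 and 6.45 at 6 h, 5.47, 5.30 and 4.996 at 24 h, and 7.17, 7.12 and 6.92 at 48 h. The 48 h arrays spanned those of DMSO. In DHL6 they were at 7.34, 7.16 and 7.09 in DMSO, 7.22, 7.66 and 7.49 at 2 h, 7.02, 7.13 and 6.36 at 6 h, 7.03, 6.87 and 6.72 at 24 h, and 6.84, 6.97 and 6.56 at 48 h. The 24 and 48 h groups overlapped each other just below DMSO. The changes at 24 h were -1.75 ± 0.20 in DHL4 (adjusted p = 7.48e-08, limma) and -0.32 ± 0.18 in DHL6, which was not called. E2F1, the transcription factor, fell at 24 h in DHL4, with a change of -0.61 ± 0.23 (adjusted p = 0.0472) and was at 0.01 ± 0.21 in DHL6.

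The response differed between the lines mainly at 24 h and in the step that followed. At 24 h the difference (DHL6 minus DHL4) was called for 26 of 45, all positive, with 16.4% of all genes called. It was called for 0 at 2 h, for 2 at 6 h and for 11 at 48 h, all of these negative, against 1.76%, 7.04% and 5.08% of all genes. The 3 with the largest difference at 24 h were MCM4 (2.21 ± 0.25), RNASEH2A (2.07 ± 0.27) and MCM6 (2.02 ± 0.19; limma, adjusted p = 2.77e-07, adjusted p = 2.38e-06 and adjusted p = 2.12e-08). The 2 at 6 h were POLA1 (-0.91 ± 0.28) and RRM1 (-0.78 ± 0.21), lower in DHL6. That count of 2 was 0 without either DHL4 DMSO array or DHL6 6 h replicate 3, and 1 without any 1 of the 3 DHL6 DMSO arrays, the 3 DHL4 6 h arrays or DHL6 6 h replicate 1.

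At 48 h the largest differences were POLA2 (-1.83 ± 0.24), EXO1 (-1.12 ± 0.28) and TYMS (-1.05 ± 0.24; limma, adjusted p = 2.62e-05, adjusted p = 0.0178 and adjusted p = 0.00952). Without the 4 arrays of low upper quartile POLA2 alone of the 45 was called there (-1.23, adjusted p = 0.000379), with EXO1 at -0.63 and TYMS at -0.53. The count of 11 became 7 and 1 without DHL4 DMSO replicates 1 and 2, 5, 5 and 7 without DHL6 DMSO replicates 1 to 3, 5 and 5 without DHL4 48 h replicates 1 and 2, and 5 and 22 without DHL6 48 h replicates 1 and 2.

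Steps between R406 times do not use the DMSO arrays. In DHL4 7 genes were lower and 2 higher at 6 h than at 2 h, against 3.30% and 8.37% of all genes, and the higher count was 0 without 2 h replicate 3 and 1 without 6 h replicate 1. From 6 to 24 h 43 were lower and 0 higher, against 13.5% and 8.75%. From 24 to 48 h 0 were lower and 39 higher, against 10.7% and 14.4%, with a median of 1.05. The 3 that rose most from 24 to 48 h were MCM4 (2.22 ± 0.16), MCM6 (2.09 ± 0.13) and RFC3 (1.90 ± 0.10; limma, adjusted p = 7.39e-11, adjusted p = 2.13e-12 and adjusted p = 4.24e-13). The 6 not called were RPA2 (0.07), PRIM1 (0.10), CDT1 (0.10), TK1 (0.42), POLE (0.42) and E2F1 (0.44).

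Set against the DMSO level, the 42 genes lower at 24 h in DHL4 had regained a median of 71.8% of that fall at 48 h, from 23.0% for TK1 to 148% for RPA1. POLE (27.8%), LIG1 (39.9%), RPA3 (42.3%) and MCM10 (42.9%) came next to TK1, and RPA1, ORC1, UNG and POLA1 had 48 h means above DMSO. These percentages carry no test. The 14 still lower at 48 h were TK1 (-1.40), LIG1 (-1.32), MCM10 (-1.18), POLE (-1.09), GINS3 (-1.01), RNASEH2A (-0.86), GMNN (-0.78), MCM4 (-0.71), GINS2 (-0.70), RPA3 (-0.67), MCM7 (-0.63), MCM6 (-0.53), PCNA (-0.50) and DUT (-0.44). In DHL4 the 24 h group had the lowest mean of the 5 groups for all 45 genes, and in DHL6 the 48 h group did for 42. These numbers, without the 4 arrays, were 45 in DHL4 and 22 in DHL6, where the 24 h group was lowest for the other 23.

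In DHL6 from 2 to 6 h 10 genes were lower and 0 higher, against 2.57% and 1.88% of all genes. From 6 to 24 h 11 were lower and 0 higher, against 2.53% and 3.30%, and from 24 to 48 h 10 were lower and 0 higher, against 5.06% and 1.65%. The count of 10 from 2 to 6 h became 6 and 4 without 2 h replicates 2 and 3 and 4 without 6 h replicate 3, and 3 with the compared groups alone. The count of 11 from 6 to 24 h became 7 without 6 h replicate 1 and 7 without each of 24 h replicates 1 and 3, 4 with the compared groups alone, 21 without the 4 arrays and 22 with array weights. The shares of all genes under these settings are not given here. The largest falls from 24 to 48 h were POLA2 (-1.51 ± 0.16), PRIM1 (-1.22 ± 0.25) and MCM10 (-1.12 ± 0.28; limma, adjusted p = 2.12e-06, adjusted p = 0.00278 and adjusted p = 0.0152). The count of 10 became 6 without 48 h replicate 1 and 23 without 48 h replicate 2. Without the 4 arrays the median step over the 45 was 0.00, POLA2, POLD1 and MCM3 were lower (-0.92, -0.90 and -0.66) and RFC3 was higher (0.51).

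The step from 24 to 48 h differed between the lines for 41 of 45, all with a lower value in DHL6, against 21.8% of all genes. The largest differences were MCM4 (-3.13 ± 0.23), POLA2 (-2.59 ± 0.22) and RFC2 (-2.42 ± 0.19; limma, adjusted p = 2.79e-10, adjusted p = 3.29e-09 and adjusted p = 6.61e-10). Without the 4 arrays 34 of the 41 kept their call and all 45 values stayed negative, with a median of -1.10.

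**Figure D4:**
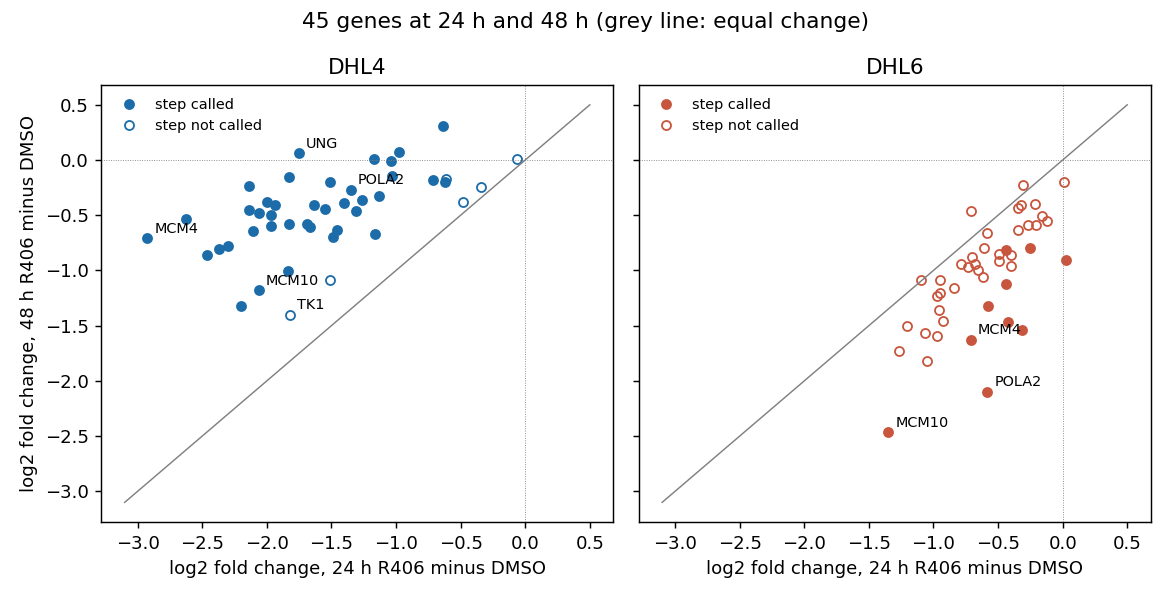
Each point is 1 of the 45 genes, with its log2 fold change from DMSO at 24 h (horizontal axis) and at 48 h (vertical axis) in DHL4 (left) and DHL6 (right); filled points have a called step from 24 to 48 h and the grey line marks equal change. In DHL4 45 of 45 points lie above the line, and in DHL6 42 lie below it with all arrays, or 22 without the 4 arrays of low upper quartile (not drawn). Both axes share the DMSO arrays of a line.

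In DMSO the difference between the lines (DHL6 minus DHL4) was called for 11 of 45, with 20.6% of all genes called and a median of 0.03 over the 45, a share of the 45 near that of all genes. It was called for 17 with array weights or with the compared groups alone. The share of all genes under those settings is not given here, so nearness to it is stated for the main fit only. Lower in DHL6 were RFC2 (-1.34), CDC45 (-1.24), TK1 (-1.18), RFC4 (-0.74), E2F1 (-0.65), CHAF1A (-0.56) and RFC3 (-0.43), and higher were GMNN (0.86), RRM1 (0.94), MCM3 (1.18) and EXO1 (1.29). The levels of the 45 genes were also set against each other over the 10 group means. The median correlation of a pair was 0.79 over 990 pairs, from -0.04 to 0.98, as a description over means that share arrays and lines. MCM4 had the highest median correlation with the others (0.88), and E2F1 (0.53), RPA2 (0.55), RPA1 (0.61), TK1 (0.63) and DNMT1 (0.63) the lowest.

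For 16 of the 45 genes the array held more than 1 probe set, 19 further sets in all, 17 of them at or above 4 on the log2 scale in DMSO. At 24 h in DHL4 all 17 were below DMSO, with a median of -1.69. In DHL6 16 of 17 were at 24 h, with a median of -0.66. The late step of RFC3 in DHL6 differed by probe set, with all arrays. Its further set went from -0.90 at 24 h to -1.24 at 48 h, and the set used went from -0.71 to -0.47.

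Other genes of the fork and of origins, which are not among the 45, were counted in the same fit. At 24 h in DHL4 20 of 33 were lower and 2 higher, with a median of -0.63, against 16.5% and 13.0% of all genes. TIPIN, a fork protection factor, was at -2.64, DSCC1 at -2.49, ASF1B at -1.94 and DONSON at -1.81. In DHL6 12 were lower and 2 higher at 24 h, against 8.17% and 6.20%, and 18 were lower and 0 higher at 48 h, against 14.9% and 8.39%. The 48 h counts were 13 and 1 without the 4 arrays, against 6.05% and 4.73%. DONSON was at -2.23 at 48 h and at -1.68 without the 4 arrays, ASF1B at -1.66 and -1.01, and TIPIN at -1.56 and -0.78. GINS4, at -1.61 and -0.68, lost its call without them (limma, adjusted p = 0.160). ORC2, a subunit of the origin recognition complex, was higher in DHL6 at 2, 6 and 24 h, at 0.98, 1.19 and 1.32. It was not called higher at 48 h with all arrays, where the highest change of the 33 was 0.29.

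Of the genes of nucleotide synthesis beyond the 5 above, 20 of 22 were lower at 24 h in DHL4 and 0 higher, with a median of -1.51, against 16.5% and 13.0% of all genes. The lowest were NME1 (-3.34), MTHFD1 (-3.11), PFAS (-3.03) and PAICS (-2.97), enzymes of nucleotide and folate metabolism. In this line 11 of the 22 were lower and 1 higher at 6 h, against 6.36% and 6.42%, led by PPAT (-1.21), the entry enzyme of purine synthesis, while DCK was higher (1.14). In DHL6 0 of the 22 were lower and 2 higher at 6 h, against 5.12% and 3.14%, and 5 were lower at 24 h, against 8.17%. At 48 h 15 were lower, against 14.9%, and 6 without the 4 arrays, against 6.05%. From 24 to 48 h 0 of the 22 were lower and 19 higher in DHL4, against 10.7% and 14.4%.

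Of 24 genes that control S phase entry, 14 were lower and 4 higher at 24 h in DHL4, against 16.5% and 13.0% of all genes, so that the higher share was near that of all genes. CDKN1B, which encodes the CDK inhibitor p27, was higher, at 1.25 at 2 h, 2.02 at 6 h and 3.23 at 24 h, and CDK4 was lower, at -0.61, -1.22 and -2.84. CCNE2, a cyclin of the G1 to S transition, was at -1.94 at 24 h in DHL4 and at -1.43, -1.41 and -2.08 at 6, 24 and 48 h in DHL6, the last -1.05 without the 4 arrays. In DHL6 7 were lower and 2 higher at 24 h, against 8.17% and 6.20%, and 9 and 3 at 48 h, against 14.9% and 8.39%. Both counts at 48 h were smaller without the 4 arrays, by an amount not given here. Of 23 checkpoint and repair genes 13 were lower and 0 higher at 24 h in DHL4, against 16.5% and 13.0%. In DHL6 14 were lower and 0 higher at 48 h, against 14.9% and 8.39%, and fewer were lower without the 4 arrays, by an amount not given here. CHEK1, a kinase of the replication checkpoint, was at -2.14 at 24 h in DHL4 and -1.53 at 48 h in DHL6, or -1.25 without the 4 arrays.

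Of 29 mitosis genes 17 were higher and 0 lower at 6 h in DHL4, against 6.42% and 6.36% of all genes. In DHL6 8 were higher and 0 lower at 6 h, against 3.14% and 5.12%. No test set these genes against the 45. At 24 h 19 were lower and 1 higher in DHL4, against 16.5% and 13.0%, with SPC25 at -2.36 and MKI67, a proliferation marker, at -2.30, and 3 were lower and 5 higher in DHL6, against 8.17% and 6.20%. At 48 h 18 of the 29 were lower in DHL4, against 3.80%, of which 16 were among the 19 lower at 24 h, and the median was -0.70 at both times. In the DHL4 step from 24 to 48 h 4 rose and 4 fell, against 14.4% and 10.7%. In DHL6 25 were lower at 48 h, against 14.9%, and 15 without the 4 arrays, against 6.05%. From 24 to 48 h 23 fell in DHL6, against 5.06%, and 9 without the 4 arrays, against 1.70%. PLK1, a mitotic kinase, was at -1.78 and -1.69 in DHL4.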

How the data were processed

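Total RNA of 29 samples was measured on Affymetrix human short-oligonucleotide arrays. The deposited values are log2 expression, made with RMA per the submitters' processing notes, with a version not given in the sources used here. Probe sets were named through the platform annotation with symbols updated by Entrez number, and the set with the highest mean stood for a gene. A model of 10 group means over all 29 arrays was fitted with limma 3.58.1 in R 4.3.3 (lmFit, eBayes, 19 residual degrees of freedom), with 20 contrasts, each adjusted by Benjamini-Hochberg over 12165 genes. The scripts were tested on simulated data. The 45 genes, their roles and the other lists were chosen with earlier results of these data known. Every one of the 45 is named. Values in all arrays are given for the lowest gene of each role at 24 h in each line, for genes called higher, and for the 3 largest line differences and late steps. At most 4 genes per other list, line and time are named. Promoters are RefSeq sequences. Alternatives changed the normalization, gene filter, probe set rule, prior, weights, block and arrays used.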

Additional observations from a re-analysis of the deposited data

Results flagged for a closer look

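The results listed here are those whose log2 change differed between DHL4 and DHL6, each given as the DHL6 value minus the DHL4 value with an adjusted p below 0.05 (limma, interaction contrast). At 24 h against DMSO, 26 genes differed, and in each the DHL4 change was the lower: MCM4 (2.21), RNASEH2A (2.07), MCM6 (2.02), GMNN (1.80), MCM2 (1.75), LIG1 (1.58), RFC2 (1.56), MCM3 (1.54), RFC4 (1.51), CDC45 (1.44), UNG (1.43), RFC3 (1.43), POLD1 (1.29), PCNA (1.19), TK1 (1.16), GINS2 (1.15), MCM5 (1.11), FEN1 (1.11), POLE (1.07), DUT (0.96), GINS1 (0.84), ORC6 (0.82), CHAF1A (0.82), MCM7 (0.78), POLA2 (0.77) and RRM1 (0.67). At 6 h 2 differed, with the DHL6 change lower: POLA1 (-0.91) and RRM1 (-0.78). At 48 h 11 differed, again with the DHL6 change lower: POLA2 (-1.83), EXO1 (-1.12), TYMS (-1.05), RRM2 (-0.98), MCM4 (-0.92), RPA2 (-0.92), MCM3 (-0.87), RFC2 (-0.86), RPA1 (-0.74), FEN1 (-0.72) and DNMT1 (-0.62). Of these POLA2 alone was called without the 4 arrays of low upper quartile.

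In the step from 24 to 48 h of R406 41 genes differed, all with the lower value in DHL6: MCM4 (-3.13), POLA2 (-2.59), RFC2 (-2.42), MCM3 (-2.41), MCM6 (-2.28), RNASEH2A (-2.17), MCM2 (-2.16), CDC45 (-2.09), RFC5 (-2.08), CDC6 (-2.02), MCM10 (-2.001), POLE2 (-1.93), UNG (-1.90), GMNN (-1.88), FEN1 (-1.83), POLD1 (-1.83), MCM5 (-1.77), RFC3 (-1.66), RFC4 (-1.65), PCNA (-1.63), RRM2 (-1.61), GINS1 (-1.52), EXO1 (-1.51), ORC1 (-1.40), POLA1 (-1.36), PRIM1 (-1.32), LIG1 (-1.32), POLD3 (-1.29), RRM1 (-1.25), ORC6 (-1.22), DUT (-1.18), TYMS (-1.15), POLE (-1.10), MCM7 (-1.09), GINS2 (-1.08), RPA1 (-1.03), CHAF1B (-0.92), RPA3 (-0.81), DNMT1 (-0.80), TK1 (-0.76) and CHAF1A (-0.72). Of these 34 were called without the 4 arrays. The arrays of low upper quartile include 2 of the 3 DHL6 arrays at 48 h, and their part in the remaining differences was not tested further.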

How the results depend on the processing

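Leaving out 1 array at a time gave 39 to 42 replication genes lower at 24 h in DHL4, 18 to 24 in DHL6, 23 to 27 with a line difference at 24 h and 34 to 40 higher in the DHL4 step from 24 to 48 h. The same gave 37 to 40 lower at 48 h in DHL6 and 39 to 43 differing in the late step, and in DMSO 8 to 10 differed. It moved other counts further. Those lower at 48 h in DHL4 ran from 5 to 15, at 6 h in DHL6 from 1 to 8, at 6 h in DHL4 from 0 to 2 and at 2 h in DHL4 from 0 to 2. Higher counts ran from 0 to 1 at 2 h and were 0 at 6 h in DHL4, and ran from 1 to 2 at 2 h in DHL6. Line differences ran from 0 to 2 at 6 h and from 1 to 22 at 48 h. Step counts lower in DHL6 ran from 4 to 7 from 2 to 6 h, 7 to 10 from 6 to 24 h and 6 to 23 from 24 to 48 h, and in DHL4 from 2 to 6 h from 5 to 8 lower and 0 to 2 higher.

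Other settings moved these counts. The share of all genes called under each setting, or with an array left out, is not given in this section. A move of the replication genes alone thus cannot be told from a move of all genes. Quantile normalization gave 6 higher at 2 h and 2 at 6 h in DHL4, 3 at 2 h and 1 at 6 h in DHL6, 15 lower from 2 to 6 h in DHL4 and 1 higher from 24 to 48 h in DHL6. Centred arrays gave 1 higher at 2 h and 0 at 6 h in DHL4 and 1 line difference at 6 h. The filter on dim genes gave 2 higher at 6 h in DHL4 and 2 at 2 h in DHL6. Fitting the compared groups alone gave 0 lower and 1 higher at 2 h and 8 lower and 3 higher at 6 h in DHL4, 3 higher at 2 h in DHL6, line differences of 5 at 6 h, 1 at 48 h and 17 in DMSO, and in DHL6 3, 4 and 1 lower in the 3 steps. The mean of probe sets gave 1 lower at 2 h in DHL4, 5 at 6 h in DHL6 and 16 from 24 to 48 h in DHL6. A trended, robust prior gave 2 higher at 2 h in DHL6. Array weights gave 4 higher at 2 h, 10 lower and 3 higher at 6 h and 1 higher at 48 h in DHL4, 3 higher at 2 h in DHL6, line differences of 5 at 6 h, 22 at 48 h and 17 in DMSO, 11 lower from 2 to 6 h in DHL4 and 22 lower from 6 to 24 h in DHL6. Without the 4 arrays of lowest upper quartile, chosen after seeing the data, 5 were higher at 2 h, 8 lower and 2 higher at 6 h and 24 lower at 48 h in DHL4, 3 higher at 2 h and 24 lower at 48 h in DHL6, line differences were 4 at 6 h, 1 at 48 h and 17 in DMSO, and in DHL6 21 were lower from 6 to 24 h and 3 lower and 1 higher from 24 to 48 h. The last setting drops no DHL4 array of DMSO, 6 h or 48 h. Its DHL4 counts at 6 and 48 h thus moved with the shared estimate of spread alone. Beyond that the cause was not tested, save that this setting and the compared groups use fewer arrays.

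With the replicate block 1 was lower and 4 higher at 2 h and 2 lower at 6 h in DHL4, and 2 were higher at 2 h in DHL6. Same-numbered arrays deviated together with r from -0.21 to 0.22 over 20 pairs, so the numbers were not taken as pairing. Of 14385 values of single genes under other settings, 13552 kept their side of the threshold, 475 lost a call and 358 gained one. Of the values called in either fit, 0 changed sign. A change of sign between uncalled values was not counted.

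The number of arrays, 2 or 3 in a group, limits the precision, and genes below 4 on the log2 scale leave little room for a fall.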
